A study of Homo sapiens with 36 samples.

Results

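This account concerns NR2F1 induction in A375TR-NR2F1 cells kept on BRAF and MEK inhibitors. A375 is a human BRAF-mutant melanoma line, and the cells used here carry a Tet repressor and a lentiviral NR2F1 cDNA that doxycycline (DOX) switches on. RNA-seq of 3 libraries labelled BRAFi + MEKi + DOX was compared with 3 libraries labelled BRAFi + MEKi, which are 6 of the 12 A375 libraries and 6 of the 36 libraries of the series. The inhibitors were PLX4720 at 1 uM (BRAFi) and PD0325901 at 35 nM (MEKi), given for 72 h. DOX was given at 100 ng/mL, with 24 h of DOX ahead of the inhibitors in the groups labelled with it. The other A375 groups, DMSO and DMSO + DOX with 3 libraries each, gave the same induction without inhibitors, and WM793 and 1205Lu, which are BRAF-mutant melanoma lines with the same inducible cDNA, each have the same 4 groups. All libraries used here carry the NR2F1 cDNA, and what DOX itself does and what NR2F1 does cannot be told apart.

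NR2F1, also called COUP-TFI, is an orphan nuclear receptor that binds pairs of the half-site AGGTCA, and it patterns the nervous system and neural crest derivatives. In tumours it is known as a marker of dormant cells. BRAF and MEK inhibitors shut down ERK signalling, on which BRAF-mutant melanoma cells depend to enter the cell cycle, and treated cultures lose the transcripts of replication and mitosis. The comparison asked which transcripts differed when NR2F1 was switched on in cells under that block.

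The 6 libraries summed to 27027824 to 27503298 normalised units over all genes. These sums follow the authors' scaling and are no measure of depth, and the low values did not come out as whole multiples of 1 read, so read depth was not recovered. Libraries of the same A375 group correlated across genes at r of 0.976 to 0.983 on the log2 scale. Replicate 3 stood apart in both inhibitor groups for a set of lineage and antigen presentation genes: DCT, a melanin synthesis enzyme, read 13700, 12970 and 1247 without DOX and 3854, 3003 and 568.8 with DOX. Some division genes were highest in replicate 3 of both groups. The proliferation marker MKI67 read 393.3, 318.4 and 1021 without DOX and 1674, 1553 and 3939 with DOX. Call totals are therefore also given without replicate 3 of either inhibitor group. The antigen presentation, melanocyte and lysosome lists are also given without replicate 3 of both. The melanoma markers SOX10 (16090 to 24850) and MITF (1994 to 2785) were expressed in all 6 libraries, while the pigment genes MLANA and TYR were at or near 0. Markers of other cell types ranged widely. The immune list, in which 6 of 12 genes had a mean under 1 in every A375 group, summed to 67.73 to 154.3 without DOX and 65.98 to 73.77 with DOX, with PTPRC at most 27 and LYZ at 31.6 to 112.2. The endothelial list of 7 genes summed to 271.9 to 504.6 and 241 to 384.2, with PECAM1 at 0 and EGFL7 at 154 to 376.6. The fibroblast list of 9 genes summed to 2026 to 2573 and 1730 to 2487, with COL1A2 at 0, LUM at 554.5 to 906.2 and PDGFRB at 710.4 to 1110. The epithelial list of 10 genes reached 3170 to 4575 and 4184 to 6315, most of it the simple keratins KRT18 (1620 to 4461) and KRT8 (883.1 to 1178), with EPCAM at most 6.2. None of these markers was called.

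Of 24370 genes tested, 333 were higher with DOX under the inhibitors, which is 1.37% of those tested, and 37 were lower, 0.152%. A gene was called when limma's moderated test on log2(value + 1), fitted to all 12 A375 libraries, gave a Benjamini-Hochberg adjusted p below 0.05. At an unadjusted p below 0.05 the counts were 1534 higher and 1047 lower. The 3 + 3 libraries did not overlap for any called gene, and they did not overlap for 15.4% of all genes tested. Among raised genes 314 were protein-coding, 252 had a log2 fold change of at least 1, and the median was 1.5. Among lowered genes 30 were protein-coding and the median was -1.18. The size of these lists depended on single libraries: without BRAFi + MEKi replicate 3 there were 499 raised and 126 lowered genes, without BRAFi + MEKi replicate 1 there were 213 and 11. The lowered count was also 14 when BRAFi + MEKi replicate 2 was left out, and 22 with BRAFi + MEKi + DOX replicate 1 left out. Without BRAFi + MEKi + DOX replicate 3 there were 245 raised and 24 lowered genes. With the replicate number as a block there were 481 raised and 120 lowered genes.

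The induced gene itself was the largest change among genes with a mean of at least 50. NR2F1 (ENSG00000175745, chr5:93583222-93594611, plus strand, GRCh38) read 1327, 1223 and 1431 under BRAFi + MEKi and 23710, 35680 and 15000 under BRAFi + MEKi + DOX. The groups did not overlap, and the log2 fold change was 4.14 ± 0.27 (SE, n = 3 per group, limma adjusted p = 6.73e-06), an 18.7-fold difference of means. These values count reads of the cDNA and of the chromosomal gene together, since the files do not separate them. Its antisense neighbour NR2F1-AS1 read 698.5, 661 and 741.1 against 601.1, 614.6 and 532.9, a log2 difference of -0.27 that was not called (limma adjusted p = 0.647). The paralogs NR2F2 (COUP-TFII, log2 difference 0.01, 95% interval -0.37 to 0.38) and NR2F6 (-0.20, -0.53 to 0.13) were not called either. NR2F1 was the only called gene of the 8 tested members of the COUP-TF family list.

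SKP2, the substrate receptor of the SCF ubiquitin ligase that marks the CDK inhibitor p27 for destruction, rose with DOX in both arms. It lies on the same chromosome as NR2F1, at chr5:36151989-36196849 on the plus strand. SKP2 read 1140, 1089 and 1154 under BRAFi + MEKi and 6436, 6127 and 4662 with DOX. All 3 induced libraries stood above every uninduced one, with a 5.09-fold difference of means and a log2 fold change of 2.33 ± 0.22 (SE, n = 3, limma adjusted p = 7.54e-05). Without inhibitors it rose as well, from 2519, 2297 and 2583 to 18560, 18150 and 9088 (log2 fold change 2.56, limma adjusted p = 0.000119), so that the induced cells under inhibitors held more SKP2 transcript than the DMSO cells. The difference between both log2 effects was -0.23 (limma interaction adjusted p = 0.93). The genes on either side of it were not called, with log2 differences of 0.00 for LMBRD2 and 0.31 for NADK2. CKS1B, the cofactor that SKP2 needs to bind p27, rose by 1.2 ± 0.15 on the log2 scale (limma adjusted p = 0.000473). The transcript of p27 itself, CDKN1B, differed by 0.03 (limma adjusted p = 0.977, 95% interval -0.27 to 0.34) and that of p21, CDKN1A, by -0.03 (1.00, -0.80 to 0.74).

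**Figure D1:**
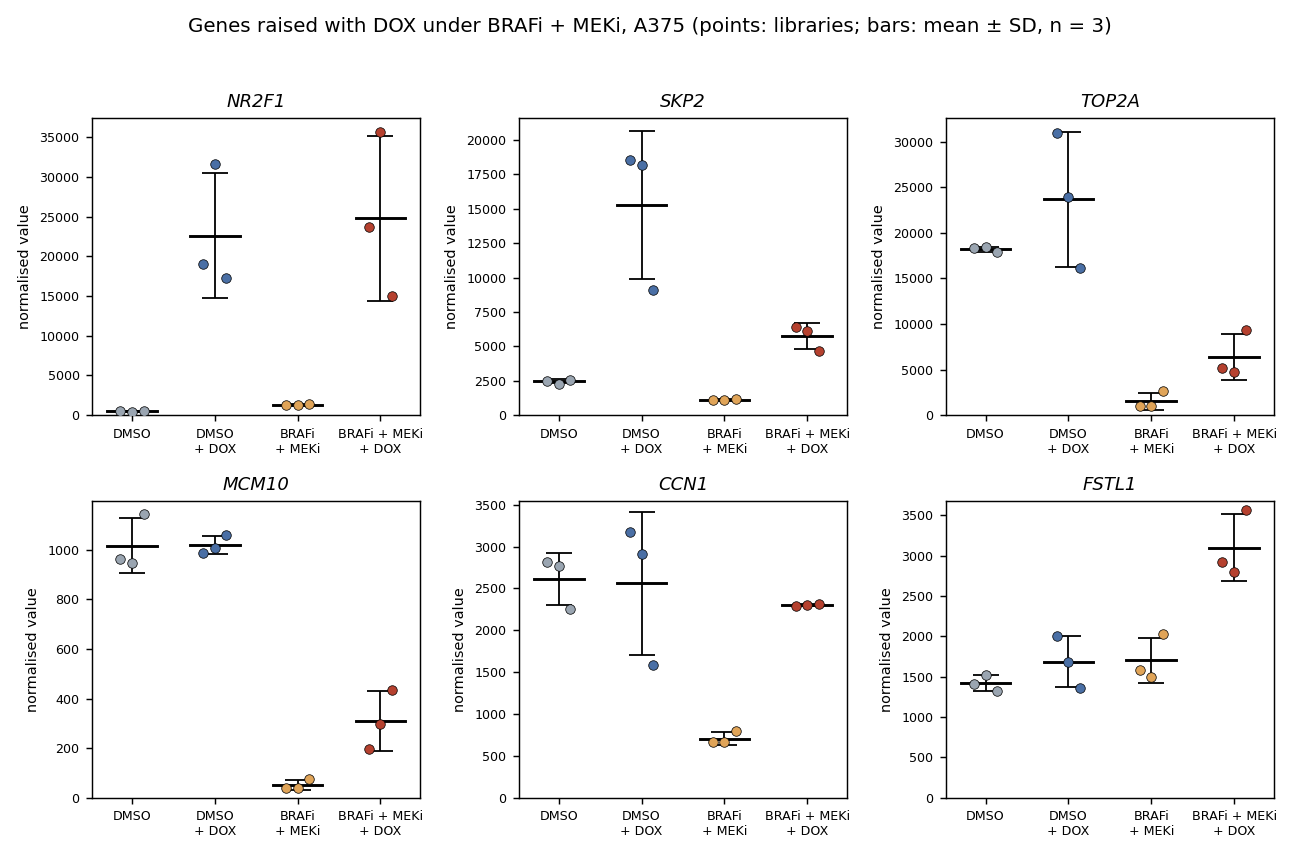
Normalised value of 6 raised genes in each A375 library (points), by treatment group, on linear axes from 0, with bars for the mean and whiskers for the SD (n = 3). NR2F1 and SKP2 were higher with DOX in both arms, whereas TOP2A, MCM10, CCN1 and FSTL1 were called higher with DOX under BRAFi + MEKi and not under DMSO. The difference between both DOX effects was called for MCM10 and CCN1 (limma interaction adjusted p = 0.0106 and 0.0143) and not for TOP2A (0.194).

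Cell division genes were raised together. In 6 lists covering replication, nucleotide synthesis, mitotic kinases, the kinetochore and spindle, recombination repair and G1 control, 138 of 243 tested members were raised (56.8%, against 1.37% of all genes), none was lowered, and 229 had a log2 difference above 0. The median log2 difference over the 243 was 0.99 under inhibitors and 0.04 under DMSO, beside a median of 0 over all genes in both arms. The other 195 raised genes lay outside these lists. Leaving out 1 library at a time gave 110 to 143 raised members. The replicate block gave 148 raised members and 333 raised genes outside, and array weights 161 and 586. Of the 195, 75 were sorted by hand as division, replication or repair genes after the calls were known, with log2 fold changes of 0.41 to 4.16. A larger share of dividing cells and more transcript per dividing cell cannot be told apart in bulk RNA.

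The mitotic lists had the highest share of raised genes. In the kinetochore, spindle and cytokinesis list 53 of 62 genes were raised with a median log2 difference of 1.79, and among mitotic kinases and regulators 28 of 34 with a median of 1.75. TTK, the spindle checkpoint kinase MPS1, read 84.44, 88.83 and 137.5 without DOX and 432.8, 431.4 and 746.5 with DOX (log2 fold change 2.35 ± 0.25, SE, n = 3, limma adjusted p = 0.000166). CDC20, which activates the anaphase-promoting complex, went from 204, 238 and 436.5 to 1193, 1330 and 1660 (2.31 ± 0.24, 0.000141). In both genes the lowest induced library lay above the highest uninduced one. CIT, the citron kinase of the midbody and not a member of these lists, rose from 722.6, 760.3 and 560.5 to 2944, 2131 and 2628 (1.91 ± 0.15, limma adjusted p = 2.63e-05). The kinesin KIF15 (2.62), the spindle pole protein ASPM (2.44), the checkpoint kinase BUB1 (2.33), survivin, encoded by BIRC5 (2.35), and cyclin B1, encoded by CCNB1 (1.52), were called as well, with limma adjusted p of 0.000141, 0.00203, 0.000224, 0.000267 and 0.00169. The spindle protein DLGAP5 (2.48, 0.00198) and the kinetochore protein CENPF (2.05, 0.00593, up to 0.0534 among the alternatives) were too.

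The replication list had 28 of 52 genes raised and all 52 above 0, with a median of 0.72. MCM10, which helps to activate the replicative helicase, read 38.74, 38.54 and 74.75 without DOX and 195.8, 298.7 and 435.5 with DOX (log2 fold change 2.59 ± 0.28, SE, n = 3, limma adjusted p = 0.000168). CDC6, which loads the MCM helicase onto origins, went from 312.9, 345.8 and 340 to 1131, 1226 and 1291 (1.86 ± 0.15, 2.63e-05), with the replicates of each group close together. CDC45, a helicase subunit, rose by 2.35 (limma adjusted p = 0.00197). In nucleotide synthesis 4 of 27 genes were raised, with a median of 0.30: the S-phase enzymes RRM2 (ribonucleotide reductase subunit, 2.46), TK1 (thymidine kinase, 2.16) and TYMS (thymidylate synthase, 1.37) were among them. In recombination repair and checkpoint genes 19 of 37 were raised, among them the polymerase POLQ (2.55), the DNA translocase RAD54L (2.26) and the helicase BLM (2.23).

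G1 control had the lowest median of these lists, 0.07, with 6 of 31 genes raised. Its raised members included SKP2 and the S-phase transcription factors E2F1, at 70.91, 64.69 and 111.7 without DOX and 300.4, 302.6 and 465.6 with DOX (log2 fold change 2.11 ± 0.24, SE, n = 3, limma adjusted p = 0.000224), and E2F2 (2.11, 0.00415). E2F2 lost its call in at least 1 alternative, with an adjusted p of up to 0.0593. Among genes outside the lists, the translocase ERCC6L (2.76), the midbody protein SHCBP1 (log2 fold change 2.7) and the proliferation marker MKI67 (2.11, limma adjusted p = 0.0133, up to 0.105 among the alternatives) rose too. SHCBP1 read 114.7, 93.53 and 182 without DOX and 876.3, 752.5 and 826.2 with DOX. The histone chaperone ASF1B (2.46), the spindle-linked TROAP (2.44), DEPDC1 (2.52) and DDIAS (2.51) rose by similar amounts, with limma adjusted p of 0.000141, 0.000238, 0.000333 and 7.54e-05.

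**Figure D2:**
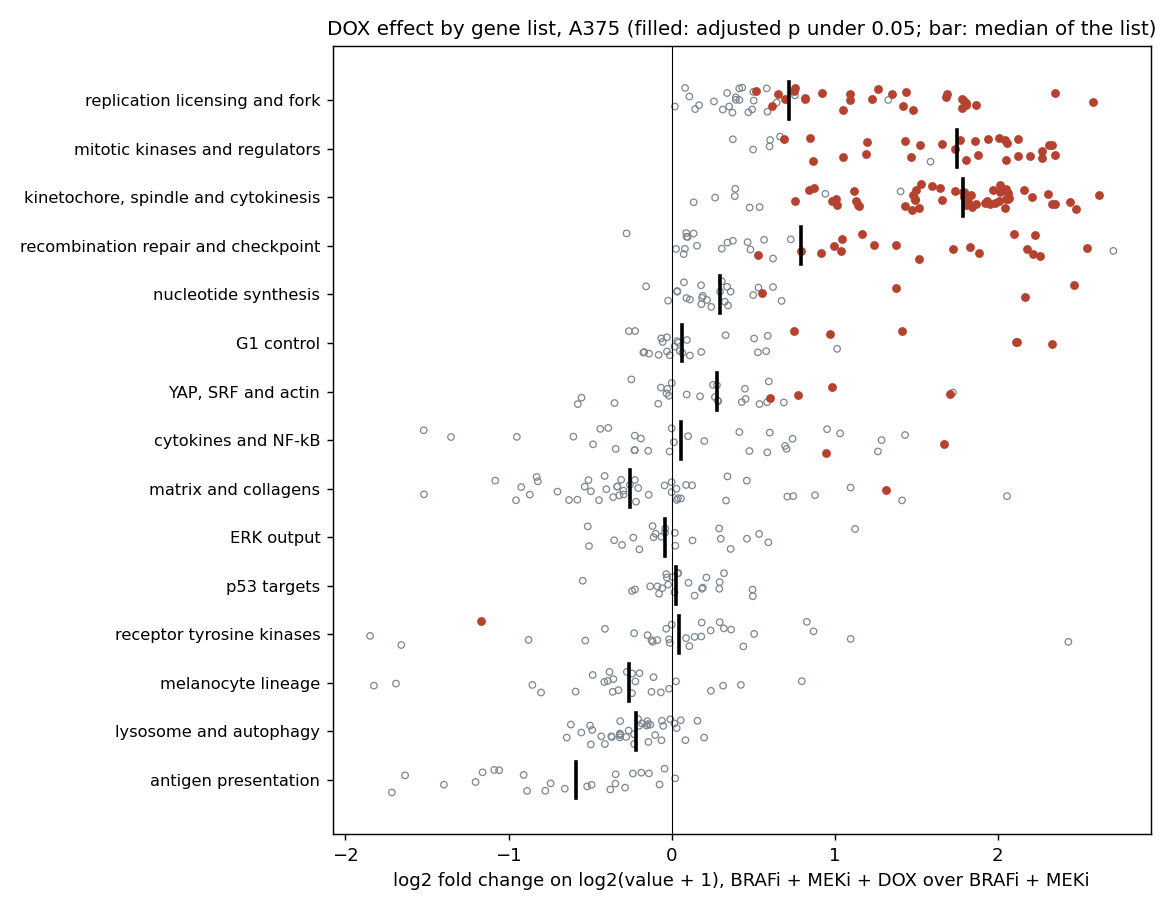
Log2 fold change between BRAFi + MEKi + DOX and BRAFi + MEKi (x axis) of each tested gene in 15 lists (rows), with filled points for called genes, open points for the others, and a bar at the list's median. The mitotic and replication lists lie to the right of 0, while the antigen presentation, lysosome and melanocyte lists hold no called gene and have medians of -0.59, -0.22 and -0.26.

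These rises ended below the level of cells without inhibitors. For 284 of the 333 raised genes the mean with DOX and inhibitors was below the DMSO mean, and for 249 all 3 libraries were below all 3 DMSO libraries. Within the 6 cell cycle lists this held for 135 of 138 means, and among the other raised genes for 149 of 195. TOP2A, the topoisomerase that untangles chromosomes, read 1011, 972.7 and 2604 under BRAFi + MEKi, 5168, 4749 and 9287 under BRAFi + MEKi + DOX, and 18330, 18390 and 17860 under DMSO. Replicate 3 was the highest library in both inhibitor groups, and the groups did not overlap (log2 fold change 2.16 ± 0.34, SE, n = 3, limma adjusted p = 0.0033). The summed value of the 6 lists was 208000, 206900 and 235400 without DOX and 308000, 306100 and 384400 with it, against 641200, 616800 and 644300 under DMSO. DUSP6, an ERK target that falls when the pathway is blocked, read 505.2, 461 and 545.2 without DOX and 712.5, 602.7 and 628.1 with DOX (log2 difference 0.36, limma adjusted p = 0.594), against 3670 to 5870 under DMSO. No gene of the 22 in the ERK output list was called, where 1.52% of all genes were called, and its median was -0.04.

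Promoter sequence was read for the raised genes because their members belong to programmes with known elements. Late cell cycle genes carry the CHR element TTTGAA, often beside CCAAT boxes, and early ones carry E2F sites, searched here as TTTCCCGC or TTTGGCGC. Windows of 300 bases, from 250 before to 50 after the start in the RefSeq table for GRCh38.p14, were searched on both strands, and CCAAT matches any copy of these letters. A window was found for 264 of the 333 raised genes and for 14555 of all genes tested. Shares are of genes with a window, and a gene with several windows counted if any of them matched. CHR letters were found for 42 of the 65 raised mitotic genes (64.6%) and for none of the 25 raised replication genes, against 14.7% of all genes. E2F letters were in 4 of the 65 (6.15%) and 12 of the 25 (48.0%), against 4.03% of all. CCAAT was in 73.8% and 64.0%, against 42.6%. The half-site AGGTCA was found for 9.47% of the raised genes and 14.5% of all. A direct repeat of it, AGGTCA followed by any 1 base and a second copy, was found for none of the 264 and for 0.0344% of all. A match is a run of letters and not a measured binding site. The windows of 2 raised mitotic genes, CDC20 (chr1:43358731-43359030, plus strand) and DLGAP5 (a spindle protein, chr14:55191536-55191835, minus strand), and of E2F1 (chr20:33686336-33686635, minus strand) and CDC6 (chr17:40287629-40287928, plus strand) show both arrangements. Matches are in capitals, and a match on the opposite strand appears as its reverse complement.
CDC20: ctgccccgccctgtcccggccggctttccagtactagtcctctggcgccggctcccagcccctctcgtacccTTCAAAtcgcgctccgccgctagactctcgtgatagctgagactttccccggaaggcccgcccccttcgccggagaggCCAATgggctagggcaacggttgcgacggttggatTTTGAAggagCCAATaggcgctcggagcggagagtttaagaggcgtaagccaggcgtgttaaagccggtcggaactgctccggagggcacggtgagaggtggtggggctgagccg
DLGAP5: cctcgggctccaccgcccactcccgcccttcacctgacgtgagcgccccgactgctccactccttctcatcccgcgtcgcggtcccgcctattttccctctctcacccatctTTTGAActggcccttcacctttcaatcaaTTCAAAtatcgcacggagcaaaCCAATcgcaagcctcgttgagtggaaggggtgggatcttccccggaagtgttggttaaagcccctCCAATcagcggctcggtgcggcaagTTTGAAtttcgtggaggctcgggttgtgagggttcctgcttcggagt
E2F1: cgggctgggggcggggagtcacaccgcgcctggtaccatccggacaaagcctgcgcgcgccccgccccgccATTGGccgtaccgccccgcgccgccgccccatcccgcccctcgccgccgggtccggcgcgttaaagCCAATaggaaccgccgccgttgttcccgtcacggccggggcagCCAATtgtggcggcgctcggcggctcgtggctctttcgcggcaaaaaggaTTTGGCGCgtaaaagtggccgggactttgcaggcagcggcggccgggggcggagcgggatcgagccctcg
CDC6: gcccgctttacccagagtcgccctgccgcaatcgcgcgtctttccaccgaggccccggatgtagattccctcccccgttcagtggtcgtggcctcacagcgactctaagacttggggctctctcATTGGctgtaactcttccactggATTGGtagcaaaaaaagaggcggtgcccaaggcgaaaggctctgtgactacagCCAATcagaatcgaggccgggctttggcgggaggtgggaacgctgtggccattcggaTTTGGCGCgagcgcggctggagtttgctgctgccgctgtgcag

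Both mitotic windows held CHR and CCAAT and no E2F letters, and both of the others held CCAAT and 1 E2F match. The SKP2 window (chr5:36151861-36152160, plus strand) held none of the 5 motifs, which says only that these letters are not in it.

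Outside the 6 lists 195 of 24127 genes were raised (0.808%), with 101 and 113 when BRAFi + MEKi replicate 1 or 2 was left out and 356 when replicate 3 was, and 333 with the replicate block. Of the 195, 120 were not sorted as division genes. Among these 120, the largest group sorted by hand was the zinc finger genes. These encode DNA-binding proteins, most of which carry a KRAB repressor domain and are known to silence mobile elements. Of the raised genes, 20 were named ZNF, and 13 of them lay within 19 to 25 Mb of chromosome 19, a cluster of recently duplicated genes. That window was chosen after its values were seen. It held 40 tested ZNF genes, of which 13 were raised, none was lowered, 29 were above 0, and the median log2 difference was 0.75 under inhibitors and 0.23 under DMSO. ZNF genes elsewhere on chromosome 19 gave 3 raised of 246 with a median of 0.01, those on other chromosomes 4 of 293 with a median of 0.03, and the 57 other genes tested in the window 4 raised with a median of 0.10. Leaving out 1 library at a time gave 9 to 15 raised genes in the window, with 9 without BRAFi + MEKi replicate 1 or 2.

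ZNF492 read 43.13, 43.14 and 47.85 without DOX and 195.2, 138.5 and 249.8 with DOX (log2 fold change 2.06 ± 0.26, SE, n = 3, limma adjusted p = 0.000491). ZNF726 went from 29.44, 56.93 and 38.65 to 174.2, 169.3 and 146.3 (1.99 ± 0.26, 0.000611), and ZNF85 from 176, 132.1 and 129.8 to 401.1, 413.5 and 444.8 (1.53 ± 0.18, 0.00029). For each of these 3 genes the induced libraries were all above the uninduced ones. ZNF93 read 144.5, 145.4 and 136.3 against 325.1, 316.6 and 330.5, which is 2.28-fold with little spread within either group (limma adjusted p = 0.00427). ZNF43, the most modest of the raised ZNF genes, went from 457.2, 417.9 and 551.6 to 829.7, 751.7 and 914.2 (0.81 ± 0.15, 0.00851, with an adjusted p of up to 0.0662 among the alternatives). Genes of this cluster resemble each other closely, so reads may be split between copies and the value of a single gene is uncertain.

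The promoters of the cluster resemble each other too. A window was found for 29 of the 40 genes. All 29 genes had CCAAT, against 48.0% of 440 other ZNF genes and 42.6% of all genes with a window, and 1 of the 29 had CHR (3.45%). The 10 raised members with a window therefore shared CCAAT with the 19 members with a window that were not called. ZNF85 (chr19:20923001-20923300), ZNF93 (chr19:19900696-19900995) and ZNF726 (chr19:23914636-23914935), all on the plus strand, are shown because the CCAAT letters, in capitals, occur 2 times in each, between 50 and 90 bases before the start.
ZNF85: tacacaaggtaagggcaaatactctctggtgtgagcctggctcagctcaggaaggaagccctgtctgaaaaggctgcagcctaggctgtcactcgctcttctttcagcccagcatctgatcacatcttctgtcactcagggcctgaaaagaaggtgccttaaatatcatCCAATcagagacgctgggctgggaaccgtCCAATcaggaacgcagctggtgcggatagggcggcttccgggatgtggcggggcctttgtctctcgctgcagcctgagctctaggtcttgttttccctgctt
ZNF93: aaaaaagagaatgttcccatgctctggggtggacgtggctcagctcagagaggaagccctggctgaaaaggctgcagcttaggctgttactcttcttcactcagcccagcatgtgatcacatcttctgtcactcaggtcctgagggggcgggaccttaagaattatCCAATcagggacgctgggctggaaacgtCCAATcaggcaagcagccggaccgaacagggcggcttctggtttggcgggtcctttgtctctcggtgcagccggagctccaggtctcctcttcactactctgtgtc
ZNF726: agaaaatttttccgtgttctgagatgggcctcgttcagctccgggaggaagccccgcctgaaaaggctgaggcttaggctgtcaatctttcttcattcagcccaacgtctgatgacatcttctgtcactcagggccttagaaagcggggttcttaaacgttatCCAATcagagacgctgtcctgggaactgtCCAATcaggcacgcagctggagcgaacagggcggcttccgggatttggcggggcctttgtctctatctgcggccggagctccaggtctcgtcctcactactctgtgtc

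**Figure D3:**
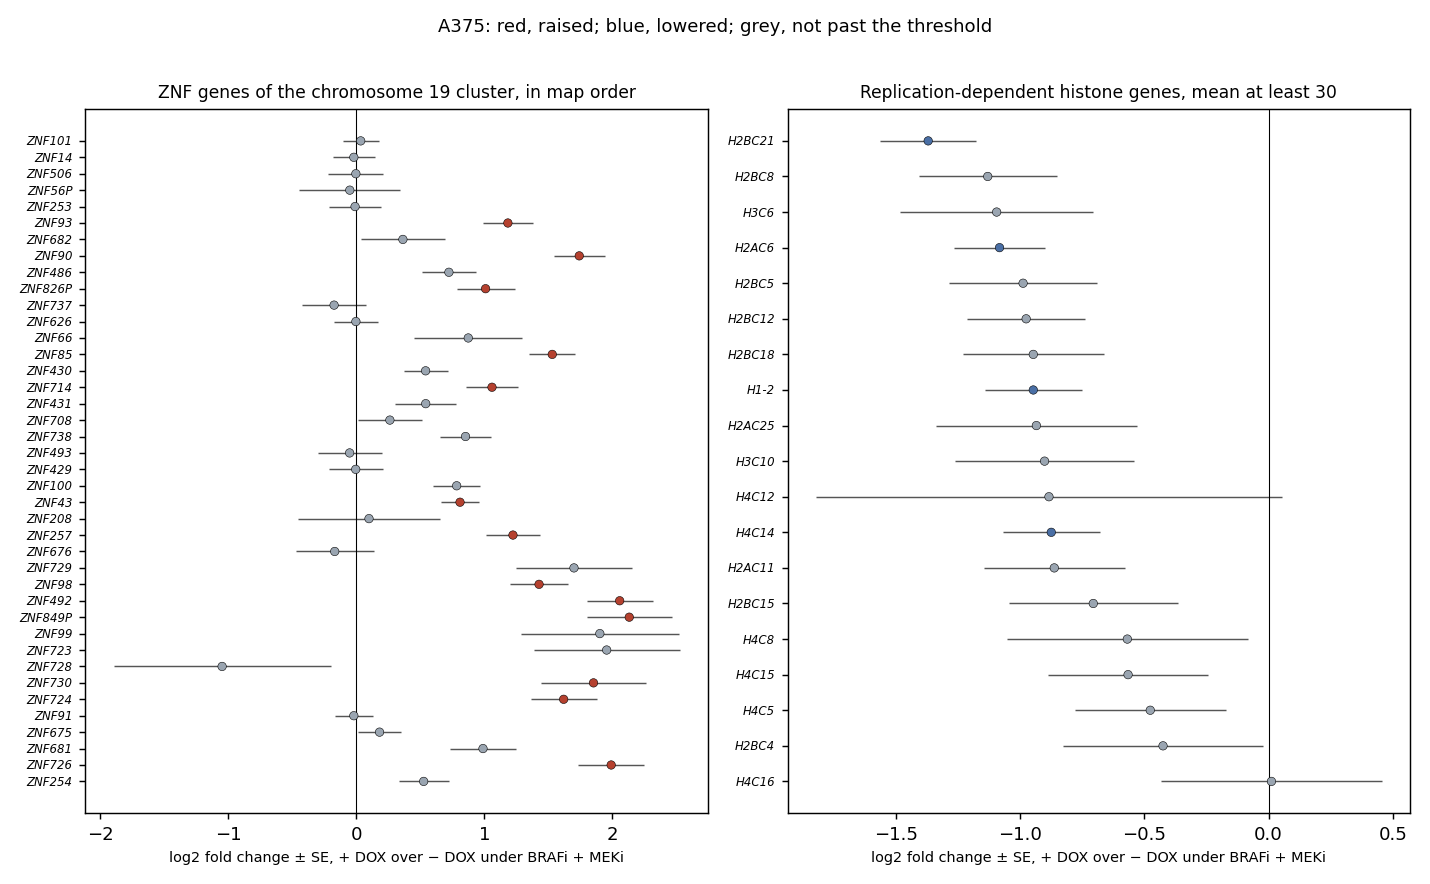
Log2 fold change between BRAFi + MEKi + DOX and BRAFi + MEKi (x axis), with whiskers for the SE, of single genes (y axis). Shown are the 40 ZNF genes tested within 19 to 25 Mb of chromosome 19, in map order, and the 19 replication-dependent histone genes with a mean of at least 30. The ZNF genes had 13 raised members and a median of 0.75, and the histone genes 4 lowered members and a median of -0.90.

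Secreted and matricellular proteins formed the next group, 14 raised genes with log2 fold changes of 0.70 to 2.58. The group was sorted by hand from called genes, so it has no number tested and no share to compare with all genes. CCN1 (CYR61, chr1:85580761-85584589), a matricellular protein and a standard target of the YAP coactivator, read 661.5, 667.9 and 794.2 without DOX and 2296, 2302 and 2319 with DOX. The induced libraries were close together and above all uninduced ones (log2 fold change 1.71 ± 0.20, SE, n = 3, limma adjusted p = 0.000313), and DMSO cells read 2816, 2766 and 2250. Its relative CCN2 (CTGF) went from 896.5, 795.8 and 1666 to 1910, 1963 and 2441 (0.98 ± 0.21, 0.0311). In the list of YAP, SRF and actin genes 4 of 29 were raised (13.8%, against 1.37% of all genes) and none lowered, with a median of 0.28, and the LIM protein AJUBA, which restrains the Hippo kinases, was among the raised genes (0.78, limma adjusted p = 0.0446). CCN2 and AJUBA lost the call in at least 1 alternative, with adjusted p of up to 0.205 and 0.23.

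Some raised genes encode growth factors or proteins known to act on them. In the TGF-beta and BMP list 0 of 37 genes were called (median -0.05), and in the GDNF family list 0 of 8. Over all genes 1.52% were called, so lists of this size can hold no call at that share. PDGFB, a platelet-derived growth factor chain, read 12.61, 19.05 and 45.25 without DOX and 57.52, 109.1 and 70.58 with DOX (log2 fold change 1.73 ± 0.39, SE, n = 3, limma adjusted p = 0.0437), and PDGFC 304.6, 259.3 and 339.8 against 562.2, 492.1 and 619.7 (0.89 ± 0.17, 0.0153). PAPPA, a protease that frees insulin-like growth factors from their binding proteins, went from 77, 57.46 and 51.59 to 174.1, 169.3 and 296.7 (1.74 ± 0.29, 0.00517), and IRS1, the insulin receptor substrate, was raised by 1.09 (0.0222). SMOC1, a modulator of BMP signalling, rose from 47.43, 54.04 and 65.27 to 163.9, 128.8 and 254.5 (1.65 ± 0.22, 0.000753). Groups of these genes did not overlap, which held for every called gene. PDGFB, PDGFC and IRS1 lost the call in at least 1 alternative, with adjusted p of up to 0.227, 0.107 and 0.144, whereas PAPPA and SMOC1 were called in each of the 13 alternatives run.

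FSTL1, a secreted glycoprotein that binds TGF-beta family ligands, read 1586, 1495 and 2024 without DOX and 2921, 2803 and 3571 with DOX (log2 fold change 0.87 ± 0.15, SE, n = 3, limma adjusted p = 0.0078, up to 0.0638 among the alternatives). WNT5A, a noncanonical WNT ligand of invasive melanoma, went from 1153, 1068 and 1084 to 1648, 1694 and 2041 (0.70 ± 0.14, 0.0171, up to 0.098). It was the 1 raised gene of 38 in the WNT list (2.63%). It was also the 1 raised of 29 undifferentiated and neural crest genes (3.45%), of which 13 were below 0, with a median of 0.04. The chemokine CXCL1 (1.67, 0.0346, up to 0.17), the matrix protein FBLN1 (1.31, 0.0438, up to 0.258), IGFBP3, which binds insulin-like growth factors (0.94, 0.049, up to 0.268), and adrenomedullin, encoded by ADM (0.82, 0.0274, up to 0.157), completed the better-known members. CXCL1 was 1 of 2 raised of 32 cytokine and NF-kB genes (6.25%). FBLN1 was the 1 raised of 47 matrix and collagen genes (2.13%), whose median was -0.26. Over all genes 1.37% were raised.

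Receptors, enzymes and other proteins followed with smaller numbers. Their groups were sorted by hand from called genes, so they have no number tested. ALDH1A3, which makes retinoic acid and marks undifferentiated melanoma, read 4599, 4429 and 5291 without DOX and 8490, 8402 and 8776 with DOX (1.79-fold, log2 fold change 0.85 ± 0.12, SE, n = 3, limma adjusted p = 0.00107). It was the 1 raised gene of 20 in the retinoid list (5.0%, against 1.37% of all genes). Of 29 undifferentiated and neural crest genes 1 was raised, WNT5A, with 16 above 0, 13 below and a median of 0.04. The group of 11 raised receptors and adaptors held the interleukin-7 receptor chain IL7R (0.90, 0.0126) and the tetraspanin-like TM4SF1 (1.77, 0.0463). The 8 raised genes sorted as actin cytoskeleton had a median of 0.86, which describes called genes only. In the YAP, SRF and actin list 4 of 29 genes were raised and the median over all of them was 0.28. The phospholipid-binding protein ANXA1 rose by 0.72 (0.0191). Among 8 raised metabolic genes the fatty acid desaturase FADS1 (0.54, 0.0215) was the 1 raised of 34 cholesterol and fatty acid synthesis genes (2.94%). The 8 raised genes of RNA processing and nuclear transport included the exportin CSE1L (0.79, 0.0296) and the splicing factor SRSF7 (0.59, 0.0442). IL7R, TM4SF1, ANXA1, FADS1, CSE1L and SRSF7 lost the call in at least 1 alternative, with adjusted p of up to 0.0843, 0.285, 0.145, 0.132, 0.179 and 0.257. The lists for ribosome biogenesis and MYC (35 genes), chaperones (31), ATF4 stress (31), interferon response (42) and p53 targets (24) had no called gene. Over all genes 1.52% were called. The medians of these lists were 0.14, 0.02, 0.11, 0.09 and 0.03.

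SPANX genes, cancer-testis genes of the X chromosome that melanomas often express, were raised in 3 of 6 cases, against 1.37% of all genes. The group was chosen after its values were seen. SPANXA2 read 61.49, 32.98 and 32.74 without DOX and 186.9, 167.5 and 102.7 with DOX (log2 fold change 1.84 ± 0.27, SE, n = 3, limma adjusted p = 0.00162). SPANXB1 (1.32, 0.0103) and SPANXC (1.82, 0.0482) were called too, with adjusted p of up to 0.0669 and 0.247 among the alternatives. The copies are near-identical, so their separate values are uncertain.

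The lowered genes were fewer and lay outside the 6 cell cycle lists, none of which had a lowered member. The largest fall among genes with a mean of at least 50 was in A2M, the secreted protease inhibitor alpha-2-macroglobulin (chr12:9067664-9116229, minus strand). A2M read 5363, 5601 and 5135 under BRAFi + MEKi and 885.3, 756.1 and 937.1 with DOX, which is 0.160 of the uninduced mean (log2 fold change -2.65 ± 0.33, SE, n = 3, limma adjusted p = 0.000478). It fell in the DMSO arm as well, from 1884, 1669 and 2535 to 173.8, 207.6 and 591.7 (-2.84, 0.00285). ADAMTS4, an aggrecan-cutting metalloprotease, read 78.14, 95.91 and 129.9 against 30.89, 33.24 and 37.16 under inhibitors (-1.53 ± 0.24, 0.00318), and 315.1, 245.8 and 320.6 against 62.18, 64.4 and 63.01 under DMSO (-2.19, 0.00195). FOLH1, the folate hydrolase PSMA, read 448.3, 372.7 and 432.1 against 201.5, 169.4 and 192.2 (-1.15 ± 0.17, 0.00176), with -1.23 (0.0176) under DMSO. In each of these 3 genes the groups were apart in both arms, and with NR2F1 and SKP2 they are the 5 genes called in both arms.

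TCN1, a secreted vitamin B12 carrier, showed a fall of like size on less even libraries. It read 9817, 9627 and 2865 without DOX and 1655, 1284 and 569.9 with DOX, so replicate 3 was the lowest library of each group (log2 fold change -2.60 ± 0.59, SE, n = 3, limma adjusted p = 0.0434, up to 0.261 among the alternatives). PKHD1, a large ciliary membrane protein, went from 477.4, 441.8 and 318.6 to 143.5, 117.3 and 102.6 (-1.75 ± 0.35, 0.0177, up to 0.127). SYTL5, a synaptotagmin-like protein of vesicle traffic, read 245.5, 230.1 and 180.9 against 85.45, 95.44 and 78.33 (-1.32 ± 0.17, 0.000491) and was called in each alternative, as was ITPK1, an inositol phosphate kinase (-0.72, 0.00537). LYPD1 (-1.27, 0.0259), SHISA2, which holds back FGF and WNT receptors (-1.2, 0.0112), the scavenger receptor SSC5D (-1.15, 0.0498) and the sugar phosphate enzyme PGM2L1 (-1.09, 0.0231) were lowered as well, with adjusted p of up to 0.141, 0.0816, 0.279 and 0.113.

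**Figure D4:**
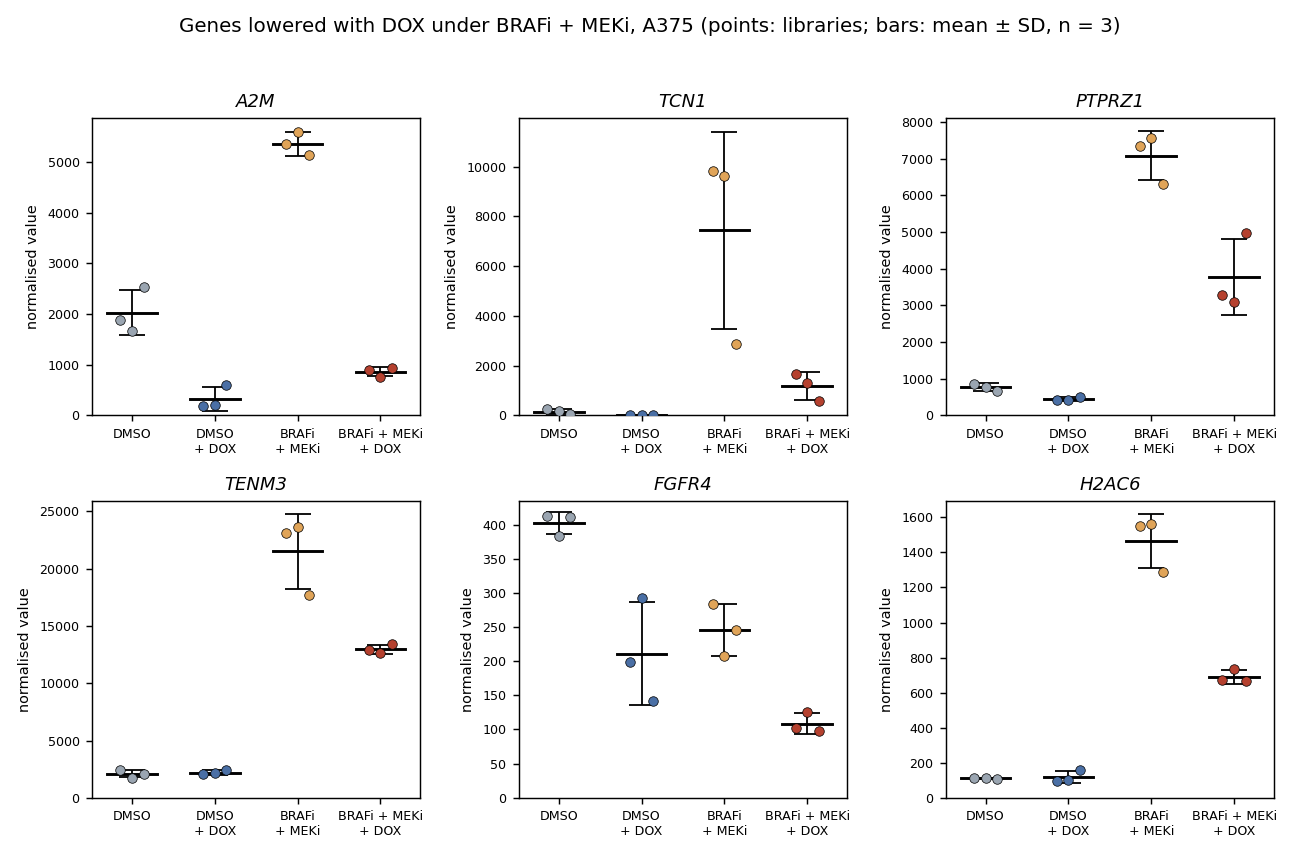
Normalised value of 6 lowered genes in each A375 library (points), by treatment group, on linear axes from 0, with bars for the mean and whiskers for the SD (n = 3). A2M was lower with DOX in both arms. TENM3 and H2AC6 were higher under BRAFi + MEKi than under DMSO, and lower under BRAFi + MEKi + DOX than under BRAFi + MEKi.

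Single genes of neural wiring and growth factor signalling were lowered. The lists of 53 axon guidance genes and 30 receptor tyrosine kinases had 1 lowered gene each, where 0.152% of all genes were lowered. Of the axon guidance genes 30 were above 0 with a median of 0.11, and of the receptor tyrosine kinases 15 with a median of 0.04. Lists of other surface proteins had no called gene, where 1.52% of all genes were called. The counts were 0 of 38 in cadherins and cell adhesion (median 0.03), 0 of 31 in integrins and laminins (-0.07) and 0 of 54 in ion channels (0.04). PTPRZ1, a receptor phosphatase of glia and neural crest, read 7361, 7563 and 6316 without DOX and 3272, 3093 and 4973 with DOX (-0.93 ± 0.17, SE, n = 3, limma adjusted p = 0.00978). TENM3, a teneurin of neuronal wiring, went from 23160, 23650 and 17720 to 12920, 12630 and 13400 (-0.72 ± 0.13, 0.00917), against 2390, 1766 and 2105 under DMSO. SLITRK5, a synaptic adhesion protein, went from 1928, 1801 and 1649 to 857.6, 735.4 and 787 (-1.18 ± 0.22, 0.0119). The guidance ligand SEMA3C fell by less, from 40380, 41300 and 37580 to 29660, 29640 and 26590 (-0.47 ± 0.09, 0.00895), and was the 1 lowered of 53 axon guidance genes. FGFR4, a fibroblast growth factor receptor, read 283.4, 206.9 and 246.3 against 102.2, 126.1 and 97.52 (-1.17 ± 0.24, 0.0207) and was the 1 lowered of 30 receptor tyrosine kinases. HBEGF, an EGF receptor ligand, was lowered by a log2 difference of -0.92 (0.0396). None of these groups overlapped, which held for every called gene. Each of the 6 genes lost the call in at least 1 alternative, with adjusted p of up to 0.0716, 0.0782, 0.0872, 0.0708, 0.142 and 0.241 in the order given.

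Among the lowered genes 4, H2BC21, H2AC6, H1-2 and H4C14, were replication-dependent histone genes, which supply the nucleosomes of newly made DNA. H2BC21 read 973.6, 833.9 and 734.6 without DOX and 335.5, 345.8 and 295.9 with DOX (log2 fold change -1.37 ± 0.19, SE, n = 3, limma adjusted p = 0.00125), and H2AC6 1549, 1560 and 1290 against 669.7, 734 and 665.1 (-1.08 ± 0.18, 0.00555). H2AC6 stood at 114.2, 112.8 and 105.1 under DMSO, so the induced cells lay between DMSO cells and uninduced ones. H1-2 (-0.95, 0.023) and H4C14 (-0.87, 0.0402) were called less firmly, and H2AC6, H1-2 and H4C14 reached adjusted p of 0.0507, 0.159 and 0.217 among the alternatives. The 4 were lowered among 61 such genes tested, against 0.152% of all genes. Over the 61, 40 had a log2 difference below 0 and 20 above, with a median of -0.50 under inhibitors and -0.11 under DMSO. Of the 19 with a mean of at least 30 over the 6 libraries, 18 were below 0 and the median was -0.90 under inhibitors and -0.22 under DMSO. Leaving out 1 library gave 1 to 6 lowered of the 19, with 1 without BRAFi + MEKi replicate 1, 2 without BRAFi + MEKi replicate 2 and 2 without BRAFi + MEKi + DOX replicate 3. Array weights gave 9 and the replicate block 6. The replacement variant H2AZ1, made from a polyadenylated transcript, rose from 2730, 2683 and 2941 to 3963, 4218 and 5111 (0.66 ± 0.11, 0.00618). Transcripts of replication-dependent histone genes normally end in a stem-loop without a poly(A) tail, so a kit that selects polyadenylated RNA, as used here, captures a part of them, and the genes are near-identical copies between which reads may be split.

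Some lists leaned one way without a called gene, where 12228 of all 24370 genes were below 0 and 11705 above. Upwards, 12 of 13 mitochondrially encoded genes (median 0.15), 27 of 35 of ribosome biogenesis and MYC (0.14) and 23 of 31 of the ATF4 stress response (0.11) were above 0. In the antigen presentation list 23 of 24 genes had a log2 difference below 0 and the median was -0.59, with -0.56 in the DMSO arm. CD74, the MHC class II invariant chain, read 107900, 108300 and 50020 without DOX and 49870, 58450 and 20900 with DOX, so the groups overlapped through replicate 3 (log2 difference -1.09 ± 0.43, SE, n = 3, limma adjusted p = 0.356). It was lower with DOX between libraries of the same number in 3 of 3 cases, and with the replicate number as a block it was called (limma adjusted p = 0.0015). The summed list was 278200, 280500 and 160800 without DOX and 167300, 186800 and 109000 with DOX, against 150300, 140000 and 95610 under DMSO. Replicate 3 was the lowest library of all 3 of these groups. B2M, the class I light chain, differed by -0.19 (0.683). Among 26 melanocyte lineage genes 21 were below 0 with a median of -0.26, and SOX10 read 24850, 24390 and 20820 without DOX and 18800, 19840 and 16090 with DOX (-0.36 ± 0.11, 0.199), without overlap. With the block SOX10 (0.036) and DCT (-1.69, 0.0364) were called. In the lysosome and autophagy list 32 of 38 were below 0 with a median of -0.22, where PSAP, the saposin precursor, gave -0.37 (0.273) and the autophagy receptor SQSTM1 -0.32 (0.601). With replicate 3 of both inhibitor groups left out, an alternative chosen after seeing the data, 23 of 24, 20 of 26 and 33 of 38 genes of the antigen presentation, melanocyte and lysosome lists were below 0, with medians of -0.60, -0.17 and -0.20. Without BRAFi + MEKi + DOX replicate 3 alone, 21 of 24, 21 of 26 and 25 of 38 were below 0, with medians of -0.42, -0.17 and -0.12. Without BRAFi + MEKi + DOX replicate 2 the medians of these lists were -0.82, -0.30 and -0.32. Whether their genes were called depended on the fit. The replicate block called 12, 2 and 1 of them, array weights 2 of each list, the fit without BRAFi + MEKi replicate 3 again 2 of each, and that without BRAFi + MEKi + DOX replicate 2 called 1 lysosome gene, while the main test and the other alternatives called none. No difference from other genes was tested for these lists.

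Fewer genes were called for the same induction without inhibitors. In the DMSO arm limma called 12 genes, 0.0492% of those tested, 4 higher (0.0164%) and 8 lower (0.0328%). The difference between both DOX effects was itself called for 112 genes (0.46%), 107 of them (0.439%) with a higher log2 effect under inhibitors and 5 (0.0205%) with a lower one. Of the 333 raised genes 311 had a log2 effect within 0.5 of 0 under DMSO, and 24 of the 37 lowered genes did. CDC6 differed between arms by 1.84 (interaction adjusted p = 0.00291), SHCBP1 by 2.72 (0.00212), CDC20 by 2.71 (0.00415) and RRM2 by 2.89 (0.0153). Outside the cell cycle CCN1 (1.79, 0.0143), CCN2 (1.58, 0.0322), PDGFB (2.81, 0.044) and IL7R (1.23, 0.043) did, and of the lowered genes SYTL5 (-1.19, 0.0432) and SEMA3C (-0.64, 0.0323). CDC6, SHCBP1 and CDC20 were called in each of 18 alternatives, RRM2 and CCN1 in 14, SYTL5 and CCN2 in 7, IL7R and SEMA3C in 6 and PDGFB in 5. Genes were picked by their inhibitor-arm values, which enlarges that side of the difference. Without single libraries the interaction count ran from 40, without DMSO replicate 1, to 209, without BRAFi + MEKi replicate 3. It was also 42 and 47 without BRAFi + MEKi replicates 1 and 2, 73 without BRAFi + MEKi + DOX replicate 3, 55 and 60 without DMSO + DOX replicates 2 and 3, and 49 and 53 without DMSO replicates 2 and 3. The DMSO count was 7 without DMSO replicate 1 or 2 and 23 without DMSO replicate 3, and 79 with the replicate block.

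**Figure D5:**
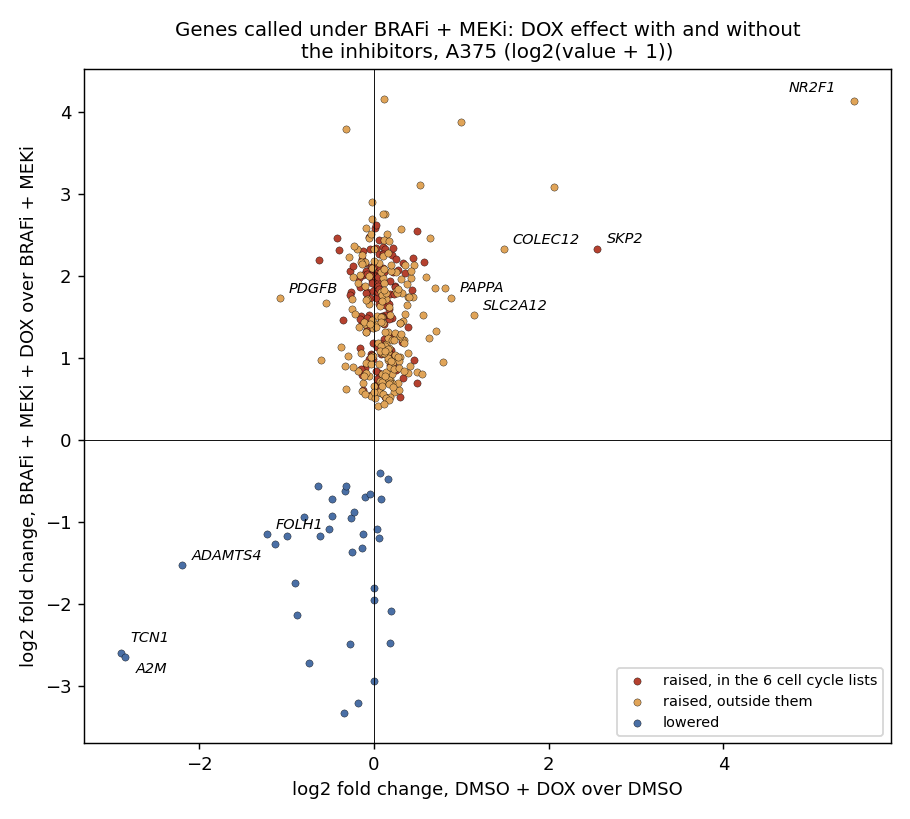
Log2 fold change with DOX of the 370 called genes under DMSO (x axis) and under BRAFi + MEKi (y axis), one point per gene. Most points lie near 0 on the x axis, with 311 of the 333 raised genes within 0.5 of 0, and NR2F1, SKP2, A2M, ADAMTS4 and FOLH1 were called in both arms.

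The other lines were set beside A375 by testing the difference of their DOX effects under inhibitors in a fit of all 36 libraries. The A375 effect differed from that in WM793 for 236 of 26779 genes (0.881%), 189 of them higher in A375 (0.706%), and from that in 1205Lu for 48 (0.179%), 20 of them higher (0.0747%). SKP2 was at 1254 ± 154 (SD, n = 3) without DOX and 1326 ± 149 with DOX in WM793, a line difference of 2.25 (limma adjusted p = 0.000775), and at 1433 ± 232 and 2640 ± 1220 in 1205Lu, a difference of 1.58 (0.0581). TOP2A in WM793 was at 14970 ± 707 without DOX and 11490 ± 870 with DOX, and differed by 2.54 (0.00114), and TTK by 2.86 (8.85e-05). The median log2 effect of the 333 genes raised in A375 was -0.06 in WM793 and 0.81 in 1205Lu, and that of the 37 lowered genes was -0.19 and -0.09. The genes were chosen on A375 values, so these medians are descriptions. FSTL1 in 1205Lu went from 45370 ± 5352 to 31350 ± 825, a line difference of 1.40 (0.00324), and ALDH1A3 from 7045 ± 506 to 5613 ± 2420, a difference of 1.25 (0.0331), while CIT differed by 2.13 (0.0165). None of these 3 was called when only the libraries compared were fitted (limma adjusted p of 0.0857, 0.322 and 0.312), a fit that called 2 genes in all, against 785 with array weights. Over 19 alternatives FSTL1 was called in 18, CIT in 16 and ALDH1A3 in 10. The WM793 differences of SKP2, TTK and TOP2A were called in each of 19 alternatives. The count for 1205Lu was 447 without 1205Lu BRAFi + MEKi + DOX replicate 1, 164 without 1205Lu BRAFi + MEKi replicate 1, 169 without A375 BRAFi + MEKi replicate 3, and 83 and 79 without A375 BRAFi + MEKi + DOX replicates 1 and 2. It was 29 without 1205Lu BRAFi + MEKi + DOX replicate 2 or BRAFi + MEKi replicate 3. The count for WM793 was 361 without A375 BRAFi + MEKi replicate 3. With the replicate block the counts were 170 and 365.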

How the data were processed

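RNA-seq was made from total RNA with the TruSeq RNA Library Prep Kit v2, and the authors described the replicates as independent experiments. The deposited values are a signal: per the submitters' processing notes, the authors aligned reads to GRCh38 with STAR, estimated gene counts with RSEM and normalised them with DESeq2. They are no counts, so no count model was run. Symbols and positions came from GENCODE on GRCh38, which matched 60401 of 60656 gene identifiers. The genes tested had a group mean of 1 or more in A375, and the test was limma's moderated one, by limma 3.58.1 (R 4.3.3) with a trend on log2(value + 1), so fold changes of low genes are understated. The 12 A375 libraries shared one fit, and the 36 libraries another for line differences, with Benjamini-Hochberg adjustment at 0.05. Named genes were NR2F1, the largest called rises and falls with a mean of at least 50 (15 each way) or 1000 (8 each way), the 3 leading called members of each list, the 2 highest members of lists without a call, and genes chosen after their values were seen: SKP2's partners and neighbours, CDK inhibitors, ZNF, SPANX and histone genes, DCT and DUSP6, and other called genes of known function. Libraries of the same number deviated together from their group means at r of 0.073, 0.054 and 0.170 over all genes in the inhibitor groups. Over genes averaging 30 or more r was 0.178, 0.160 and 0.332 (DMSO groups 0.110, 0.106 and 0.448). BRAFi + MEKi replicate 2 went slightly more with BRAFi + MEKi + DOX replicate 1 (0.058 and 0.216) than with replicate 2 in both gene sets. These values leave unsettled whether the numbers pair the samples. Values with a replicate block are given where they change a call. Members and lists were chosen with earlier results of these data known. Alternatives left out each library, used a pseudocount of 0.1, no filter, other scalings, array weights, a replicate block, or only the compared libraries. The study's methods seed cells with DOX without setting groups apart, and groups here follow the labels. The lists for replication-dependent histones and for chromosome 19 use symbol and position.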

Additional observations from a re-analysis of the deposited data

Results flagged for a closer look

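These results were flagged because the DOX effect in A375 under inhibitors differed, by a test of the difference itself, from the effect in another setting. Against DMSO, limma called 112 genes. The difference was 2.81 on the log2 scale for PDGFB (adjusted p = 0.044), 2.72 for SHCBP1 (0.00212), 2.89 for RRM2 (0.0153), 2.71 for CDC20 (0.00415), -1.19 for SYTL5 (0.0432), -0.64 for SEMA3C (0.0323), 1.84 for CDC6 (0.00291), 1.79 for CCN1 (0.0143), 1.58 for CCN2 (0.0322) and 1.23 for IL7R (0.043). Against WM793, 236 genes were called, and the difference was 2.25 for SKP2 (0.000775), 2.86 for TTK (8.85e-05) and 2.54 for TOP2A (0.00114). Against 1205Lu, 48 genes were called, and the difference was 2.13 for CIT (0.0165), 1.40 for FSTL1 (0.00324) and 1.25 for ALDH1A3 (0.0331), none of which was called when only the libraries compared were fitted (0.312, 0.0857 and 0.322). Of 19 alternatives CIT was called in 16, FSTL1 in 18 and ALDH1A3 in 10. The causes were not tested.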

How the results depend on the processing

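Of 83 called genes with values in the text, 45 were called under each of the 13 alternatives and none changed sign. NR2F1 stayed between 3.83 and 4.46. Array weights gave 747 raised and 288 lowered genes, 586 raised outside the cell cycle lists, 23 for DMSO, 236 for the interaction, 746 against WM793 and 785 against 1205Lu. Only the libraries compared gave 2 against 1205Lu. The replicate block gave 481 raised and 120 lowered, 333 raised outside the lists, 79 for DMSO, 365 against WM793 and 170 against 1205Lu. It changed no other call of a gene named for the main comparison than those of SOX10, CD74 and DCT. Not every sample correlated best with its own number. Leaving out 1 library gave 213 to 499 raised, 11 to 126 lowered, 110 to 143 raised within and 101 to 356 outside the cell cycle lists, 7 to 23 for DMSO, 40 to 209 for the interaction, 179 to 361 against WM793 and 29 to 447 against 1205Lu. SOX10 (-0.36, adjusted p = 0.0333) was called with array weights, and SOX10 (-0.36, 0.036), CD74 (-1.09, 0.0015) and DCT (-1.69, 0.0364) with the block. Uncalled genes near 0 changed sign: LMBRD2 was -0.06 with array weights, -0.01 at the same total and -0.08 to 0.07 without 1 library, NR2F2 was -0.01 at the same total and -0.12 to 0.11 without 1 library, CDKN1B -0.06 to 0.21 and CDKN1A -0.34 to 0.37. The causes were not tested. With 3 libraries a group, the interval of a single gene's log2 difference limits what an uncalled gene shows.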
